A study of Mus musculus with 82 samples.

Results

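Histone acetylases, deacetylases and the genes that read acetyl-lysine or chromatin next to it were taken from the gene counts by symbol: the Kat genes, Hdac genes, Sirt1 to Sirt7, the Brd genes with a single digit, Ing1 to Ing5, and the coactivators Ep300, Crebbp, Ncoa1, Ncoa2 and Ncoa3. The rule uses no measured value and found 46 of the 55376 genes counted. Of these, 43 were protein-coding and were tested in each RNA comparison. The pseudogenes Kat2b-ps, Kat6b-ps1 and Kat6b-ps2 had between 0 and 8 reads in a library and were not tested. By role the members were 8 acetyltransferases, 5 coactivators, 4 class I, 4 class IIa, 2 class IIb and 1 class IV deacetylases, 3 nuclear, 1 cytosolic and 3 mitochondrial sirtuins and 5 ING genes, the rest of the protein-coding members being bromodomain genes.

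All cells came from the bone marrow of male C57BL/6J mice without an introduced mutation. mRNA-seq compared hematopoietic stem cells (HSCs) of young mice (YHSCs, 4 libraries) with those of old mice (OHSCs, 8 libraries). Each old library was 1 mouse, whereas a young library pooled several, and pooling averages over animals. OHSCs were also transduced with a lentivirus that carried GFP and a scramble shRNA as control (shControl) or one of a pair, shRNA1 and shRNA2, directed at the shorter variant of Btaf1, and were sequenced after culture or after transplantation into irradiated recipients (2 libraries for each shRNA and experiment). A transplanted library pooled several recipients, and in both experiments every library, controls included, came from old donors. The common myeloid (CMP), granulocyte-macrophage (GMP) and megakaryocyte-erythrocyte (MEP) progenitors were from young wild-type mice (2 libraries each). ATAC-seq gave chromatin accessibility in 4 young and 4 old libraries of HSCs, H3K27ac ChIP-seq had 2 libraries an age, and H3K4me3 and H3K27me3 were used in 2 young libraries each.

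Acetylation of lysines on histone tails is written by acetyltransferases, removed by deacetylases and read by bromodomains. Writers and erasers work inside large complexes: KAT2A and KAT2B in SAGA and ATAC, KAT5 in NuA4, KAT6 and KAT7 with BRPF or JADE scaffolds, HDAC1 and HDAC2 in Sin3, NuRD and CoREST, and HDAC3 in NCoR. Sirtuins are deacylases that need NAD+ and are widely studied in aging, and ING proteins bring such complexes to H3K4me3 through a PHD finger.

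Reads counted on genes ranged from 20475764 to 24122404 in young and from 22175623 to 24654742 in old libraries, from 37292602 to 42737054 in cultured and from 37601706 to 42142361 in transplanted HSCs, and from 33177394 to 36510850 in progenitors. Levels below are CPM, read counts scaled to an equal library total, with TMM normalization within each experiment, unless plain CPM is named, and "called" means an adjusted p below 0.05 in edgeR's quasi-likelihood test. Gene-level Btaf1, which does not separate the variants, went from 93.2 CPM in YHSCs to 134 in OHSCs. It was 138 and 142 CPM in the cultured controls against 109 to 118 under the shRNAs, and 161 and 166 in the transplanted controls against 118 to 139. The summed plain CPM of 8 HSC markers was 4714 to 4778 in YHSCs and 4290 to 4740 in OHSCs. The sum of 8 B cell markers was 87.1 to 156 in YHSCs and 37.2 to 45.4 in OHSCs, that of 6 megakaryocyte markers 491 to 511 and 857 to 1188, and that of 8 myeloid markers 129 to 262 and 296 to 386. The megakaryocyte sum was mostly Vwf (means of 337 and 754 plain CPM) and Itga2b (104 and 238). Gp9 had means of 27.8 and 35.5 and Gp1bb of 0.0561 and 0.201, while Pf4 (27.8 and 26.5) and Ppbp (3.89 and 2.12) were lower in OHSCs. The myeloid sum was mostly Prtn3 (means of 127 and 309 plain CPM), and of the 6 myeloid markers tested 5 had a log2 FC below 0, with 1 called higher and 1 lower. Of 8 erythroid markers 2 were called higher and 4 lower, and all 7 proliferation markers were below 0 with 1 called, at a sum of 206 to 249 in YHSCs and 133 to 223 in OHSCs. The part of these cells or programs in the age results below was not tested, and in bulk samples fewer cells of a type and less RNA per cell cannot be told apart.

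The comparison of YHSCs with OHSCs asked whether the machinery of histone acetylation changes its transcript level with age. The changes were small. Of the 43 members, 2 were called higher and 6 lower in OHSCs, while 11.9% of the 21522 genes tested were called higher and 8.67% lower. No member passed the study's added threshold of a fold change (FC) above 1.5, which 7.52% of all genes passed. That count was 0 in edgeR and in DESeq2, and also at an unadjusted p below 0.05 with that FC, which 5.34% of all genes passed upward and 3.81% downward. The members' log2 FC ranged from -0.30 to 0.24 with a median of -0.04 (-0.01 over all genes), and 29 were below 0. The median size of the change was 0.0783 for members and 0.155 for all genes, and the median standard error (SE) 0.0518 and 0.109. For 42 of the 43 members the 95% interval of the change lay within 1.5-fold in either direction, which held for 57.7% of all genes tested. The exception was Brd1.

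**Figure D1:**
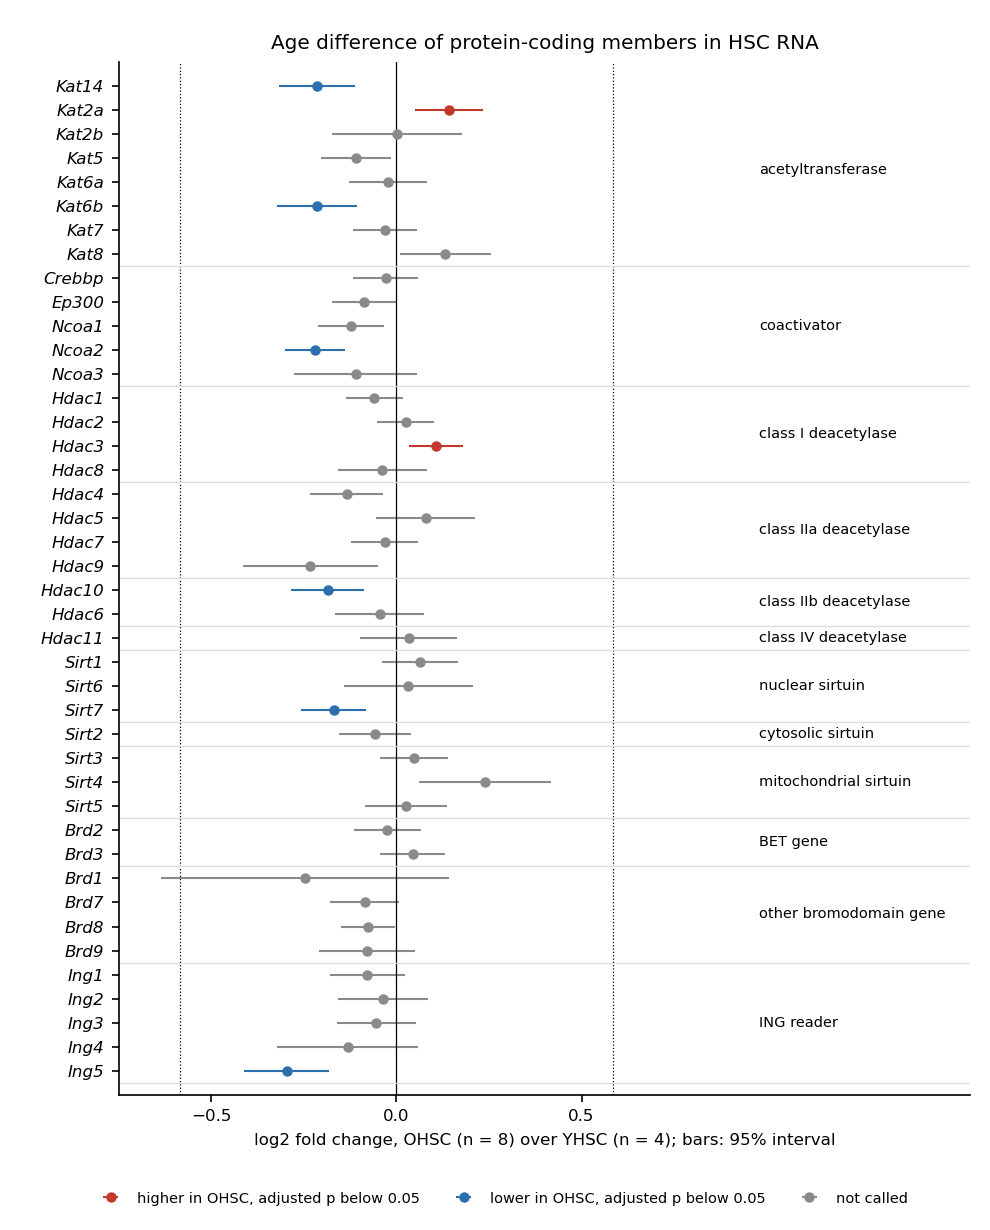
Log2 fold change of OHSCs (n = 8) over YHSCs (n = 4) for 42 protein-coding members, by role, with bars of the 95% interval, red and blue for adjusted p below 0.05 and dotted lines at 1.5-fold. The 8 called members lie between -0.30 and 0.14, and only the bar of Brd1 passes a dotted line.

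Among the writers, Kat14 and the MYST family acetyltransferase Kat6b fell with age. Kat14, a subunit of the ATAC complex, had 68.2, 68.0, 63.6 and 63.5 CPM in the 4 young libraries and a lowest, median and highest value of 50.8, 56.6 and 63.6 in the 8 old ones. The groups met at the edge, where the highest old library reached the lowest young ones (log2 FC -0.21, SE 0.0519, adjusted p = 0.00366). Kat6b, whose product acetylates H3 with BRPF1, had 62.6, 60.0, 52.8 and 55.2 CPM in YHSCs against 45.1, 49.3 and 53.2 in OHSCs (log2 FC -0.21, adjusted p = 0.00595). Without young library 1 its adjusted p was 0.0554. Kat2a, the SAGA acetyltransferase, went the other way, from 145, 134, 143 and 151 CPM to 147, 156 and 171 (log2 FC 0.14, SE 0.0468, adjusted p = 0.0308). Its groups overlapped, and the call was lost without young library 1, 2 or 3 or old library 1 or 2, with an adjusted p of 0.0557 to 0.152. The other 5 acetyltransferases, Kat2b, Kat5, Kat6a, Kat7 and Kat8, were not called and had log2 FC of -0.11 to 0.13.

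All 5 coactivators had a log2 FC below 0, and Ncoa2 was called. Ncoa2 (ENSMUSG00000005886.14, chr1:13139105-13374083, minus strand, mm10) encodes a p160 coactivator that nuclear receptors use to recruit CBP and p300. It had 144, 144, 156 and 155 CPM in YHSCs and 122, 128 and 138 (lowest, median, highest) in OHSCs, so that every old library lay below every young one, which 13.9% of all genes showed in either direction (log2 FC -0.22, SE 0.0419, adjusted p = 0.000346). Its relative Ncoa1 had a log2 FC of -0.12 with an adjusted p of 0.0585. The genes of CBP and p300 themselves were near their young level: Crebbp had means of 156 and 153 CPM (log2 FC -0.03, adjusted p = 0.743) and Ep300 143 and 135 CPM (log2 FC -0.09, adjusted p = 0.191).

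The 18 deacetylases and sirtuins divided evenly, 9 below and 9 above 0, with 1 called higher and 2 lower. Hdac3, the catalytic subunit of NCoR, had 150, 139, 149 and 149 CPM in YHSCs and 150, 160 and 162 in OHSCs (log2 FC 0.11, SE 0.0377, adjusted p = 0.0472). This call was the weakest of the 8: it was lost when any of the 4 young libraries or old library 1, 2, 3, 5 or 6 was left out, with an adjusted p of 0.0543 to 0.203. Hdac1 and Hdac2 had log2 FC of -0.06 and 0.02. Hdac10, a class IIb enzyme known as a polyamine deacetylase of the cytoplasm, fell from 92.7, 84.2, 83.1 and 93.9 CPM to 71.8, 78.5 and 83.1 (log2 FC -0.19, SE 0.0503, adjusted p = 0.00909). Its age groups only just failed to overlap, and without young library 1 or 4 its adjusted p was 0.0611 or 0.0685. None of the 4 class IIa deacetylases, which bind MEF2 factors and have little activity of their own, was called. Hdac9 had 36.5, 35.7, 35.7 and 35.2 CPM in YHSCs and 23.0, 30.4 and 37.1 in OHSCs (log2 FC -0.23, SE 0.0930, adjusted p = 0.0900), and Hdac4 had a log2 FC of -0.13 (adjusted p = 0.0643).

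Of the sirtuins, Sirt7 was called. Sirt7 encodes the nucleolar sirtuin that deacetylates H3K18, and it fell from 92.8, 82.2, 91.5 and 88.2 CPM to 73.1, 79.3 and 82.3 (log2 FC -0.17, SE 0.0446, adjusted p = 0.00735). A single young library lay within the old range, and without young library 1 the adjusted p was 0.0556. Sirt1 had means of 45.7 and 47.8 CPM and Sirt6 of 12.6 and 12.9 CPM, with log2 FC of 0.06 and 0.03. The 3 mitochondrial sirtuins were all above 0. Sirt4 had the largest positive value of the family, from 12.9 to 15.1 CPM in YHSCs and from 14.2 to 19.8 in OHSCs (log2 FC 0.24, SE 0.0905, adjusted p = 0.0652), and Sirt3, the main mitochondrial deacetylase, had 0.05.

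Of the readers, Ing5 was called with age. Brd2 and Brd3, BET genes whose products bind acetylated chromatin at transcribed genes, had log2 FC of -0.02 and 0.04 with SE of 0.0460 and 0.0447, and neither passed at an adjusted p or at an unadjusted p below 0.05, which 30% of all genes did. Brd1, a scaffold of the KAT6 and KAT7 complexes, had the widest relative spread of the tested members in OHSCs: 95.4, 93.4, 77.3 and 73.6 CPM in YHSCs and a lowest, median and highest value of 45.6, 78.0 and 88.9 in OHSCs (log2 FC -0.25, SE 0.199, adjusted p = 0.482). All 5 ING genes were below 0, and Ing5 was called with the largest change of the 43 members. Ing5 (ENSMUSG00000026283.13, chr1:93803965-93822101, plus strand) encodes a subunit of the KAT6 and KAT7 complexes. It had 84.8, 79.7, 72.5 and 77.8 CPM in YHSCs and 56.8, 63.6 and 74.5 in OHSCs, and 1 old library reached into the young range (log2 FC -0.30, SE 0.0586, adjusted p = 0.000516). Ing5, Ncoa2 and Kat14 were called in every alternative run of the age comparison. The other 4 ING genes had log2 FC of -0.13 to -0.04.

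The Ing5 promoter is shown because its RNA was lower in OHSCs and its accessibility (below) was lower too, as at most start sites. It is the 250 bases before the RefSeq start in GRCm38.p6, chr1:93803715-93803964 on the plus strand, and capitals mark GGGCGG (the core of an Sp1 site), CCAAT or CGGAAG (the core of an ETS site) on either strand:
Ing5: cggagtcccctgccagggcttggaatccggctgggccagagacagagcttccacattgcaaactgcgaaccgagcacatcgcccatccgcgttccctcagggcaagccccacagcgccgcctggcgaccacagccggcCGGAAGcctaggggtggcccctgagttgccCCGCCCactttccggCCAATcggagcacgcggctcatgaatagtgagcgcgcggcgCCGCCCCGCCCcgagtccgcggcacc
This window held 3 GGGCGG, 1 CCAAT and 1 CGGAAG, and 70.0% of its bases were G or C (median of all promoters 52.4%). Of the 46 members, 35 matched the promoter table, with 53 promoters between them, some of which overlap within a gene, as at Ing1 and Kat6b. GGGCGG stood in 37 of the 53 (69.8%), at 29 of the 35 genes, and in 32.7% of all 32851 promoters of the same length. CGGAAG stood in 22.6% and 13.6%, CCAAT in 37.7% and 33.8%, and TATAAA in 7.55% and 12.4%. These shares were not adjusted for G and C content. A match is a run of letters and not a bound site.

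**Figure D2:**
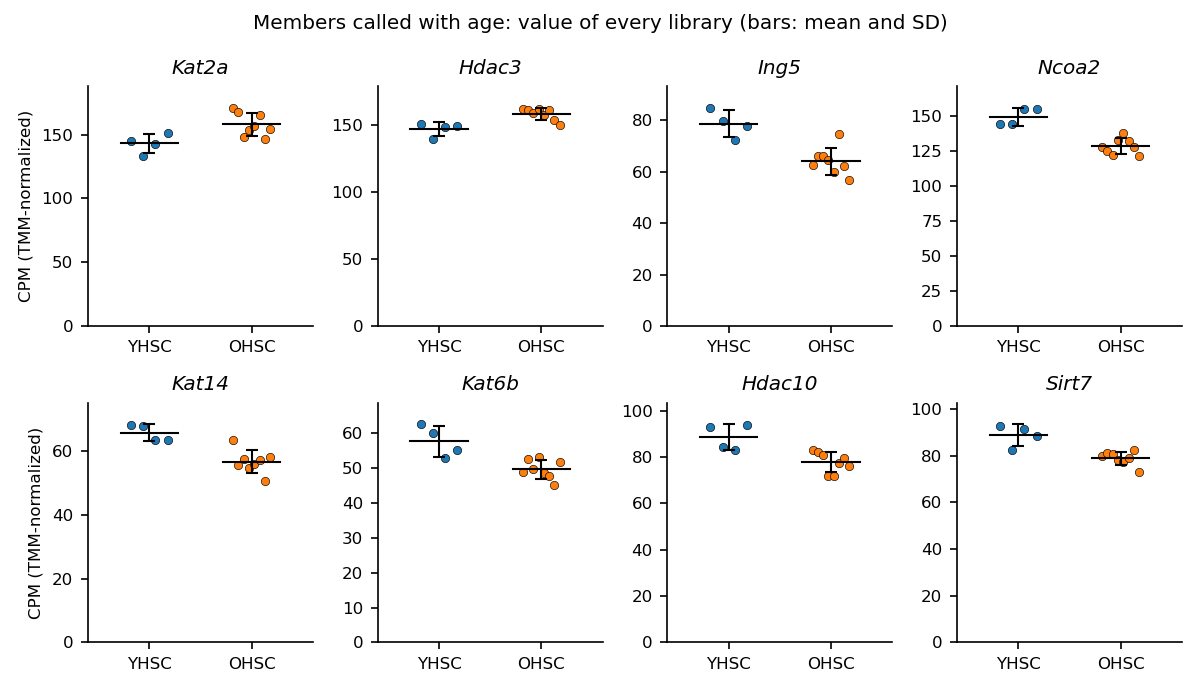
Levels in CPM (linear axis from 0) of the 8 members called with age in each of the 4 YHSC and 8 OHSC libraries, with the mean and SD. The groups stand apart for Ncoa2 and, narrowly, for Hdac10, and share part of their range for Kat2a, Hdac3, Ing5, Kat6b, Kat14 and Sirt7.

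The subunits that house these enzymes were followed with a list of 99 genes, of which 5 were called higher and 10 lower in OHSCs, against 11.9% and 8.67% of all genes. In NuRD 0 of 9 were called by edgeR, and none had an unadjusted p below 0.05. Sgf29, the SAGA reader of H3K4me3, rose (log2 FC 0.45, SE 0.0510, adjusted p = 3.03e-07), as did Sap30l of Sin3 (0.20), Hmg20b of CoREST (0.20), the corepressor gene Ncor1 (0.11) and Mllt3, a YEATS domain reader (0.13). Rcor2, a CoREST scaffold, fell (log2 FC -0.41, SE 0.0547, adjusted p = 3.33e-06), as did Msl2 of the MSL complex of KAT8 (-0.27), Epc1 and Mbtd1 of NuA4 (-0.20 and -0.15), Supt20 of SAGA (-0.16), Jade3 (-0.18), Arid4a (-0.17) and the readers Zmynd8, Trim24 and Atad2 (-0.15, -0.21 and -0.22). Without young library 3 or 4 only 2 of the 99 genes were called higher, and without young library 1 only 4 were called lower.

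ATAC-seq placed 292 accessible regions at 43 members, from 2000 bases before the start to the end of the gene, and 198 had enough reads to test. At an adjusted p below 0.01, 19 were higher and 19 lower in OHSCs, at 18 genes, while 13.7% and 9.54% of all 89245 regions tested were higher and lower. Without old library 5 the higher count was 12. The gains lay inside genes. Of the 37 regions over the outermost annotated start of a member, which leaves out internal starts, 0 were higher by edgeR and 9 lower, and 36 had a log2 FC below 0 (median -0.17). The region above 0, at Kat8, had a log2 FC of 0.04 (adjusted p = 0.738) and did not pass at an unadjusted p below 0.05 either. Among all 11951 start sites of protein-coding genes 3.36% were higher, 27.5% lower and 81.9% below 0 (median -0.14) as background. Of the other 161 regions tested, which lay inside the genes or, as at Kat2a, Hdac3 and Sirt1, before them, 19 were higher and 10 lower.

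Among the start sites, that of Ing4, an ING gene of the KAT7 complex, fell to a mean of 19.7 ± 1.22 CPM (SD, n = 4) from 24.2, 27.7, 28.7 and 27.5 (log2 FC -0.46, adjusted p = 9.97e-07), while Ing4 RNA was not called (-0.13, adjusted p = 0.413). Other called start sites were those of Sirt3 (-0.44), Hdac10 (-0.36), Kat7 (-0.23), Ncoa2 (-0.22), Sirt2 (-0.18), Ing5 (-0.17) and Ing2 (-0.16). The Sirt3 region also covered a start of Psmd13, the Sirt2 region one of Nfkbib, the Ing4 region one of Gm44597, the Kat7 region one of Gm11520 and the Ing2 region one of AA386476, so these cannot be assigned to 1 gene. RNA and start-site accessibility were both called lower for Ncoa2, Hdac10 and Ing5. As background, 27.5% of all protein-coding start sites were called lower, and the overlap with RNA was not tested. The Ing5 change was at the median of the member start sites (-0.17) and near that of all start sites (-0.14). At Ncoa2 (chr1:13372172-13374828, mm10) the region had 184, 195, 183 and 180 CPM in YHSCs and 154, 162, 153 and 168 in OHSCs (adjusted p = 4.65e-06). At Ing5 (chr1:93803518-93804533), which covers the promoter printed above, it had 91.9, 98.7, 98.1 and 94.4 against 85.2, 82.2, 83.2 and 89.9 (adjusted p = 0.00139).

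Inside the genes, Hdac9 held 11 of the 19 gains. It (ENSMUSG00000004698.10) spans chr12:34047580-34917095 on the minus strand and had 59 regions, 40 of them tested, with 11 called higher, 1 lower and 33 of 40 above 0 (median log2 FC 0.32, range -0.52 to 1.18). The largest gain lay in an intron at chr12:34620491-34621596, with 2.75, 2.06, 3.16 and 2.53 CPM in YHSCs and 6.32, 6.69, 6.82 and 4.28 in OHSCs (log2 FC 1.18, SE 0.168, adjusted p = 9.26e-08). The strongest signal among the gains, at chr12:34248420-34249717, overlapped an exon and rose from 21.3, 20.6, 19.7 and 20.4 CPM to 31.2, 31.0, 29.6 and 28.8 (log2 FC 0.56, adjusted p = 1.18e-09). In both regions every old library lay above every young one, a separation in either direction that 29.9% of all regions showed. Another gain, at chr12:34528810-34529725, held an internal start of Hdac9 in GENCODE and in RefSeq and had 2.34, 1.31, 2.49 and 1.78 CPM in YHSCs and 3.99, 4.94, 3.27 and 3.80 in OHSCs (log2 FC 0.98, adjusted p = 6.08e-05). No accessible region lay over the outermost start. The region nearest to it, chr12:34906318-34907840, held another annotated Hdac9 transcript start. This region had 19.9, 20.2, 22.4 and 21.6 CPM in YHSCs and 24.4, 19.2, 18.9 and 20.2 in OHSCs and did not pass (log2 FC -0.03, adjusted p = 0.789). Hdac9 RNA, as given above, was not called with age.

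The Hdac9 promoters are shown because the internal RefSeq start gained accessibility and the outermost start carried H3K27me3 (below). They are the 250 bases before the internal start (chr12:34528890-34529139) and the outermost start (chr12:34917096-34917345), both on the minus strand in RefSeq GRCm38.p6, with motifs from the same 4 in capitals:
Hdac9 internal: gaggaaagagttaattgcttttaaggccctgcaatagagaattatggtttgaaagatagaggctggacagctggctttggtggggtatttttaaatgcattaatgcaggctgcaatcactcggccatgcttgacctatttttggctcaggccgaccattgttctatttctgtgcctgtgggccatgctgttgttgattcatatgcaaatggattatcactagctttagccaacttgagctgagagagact
Hdac9 outermost: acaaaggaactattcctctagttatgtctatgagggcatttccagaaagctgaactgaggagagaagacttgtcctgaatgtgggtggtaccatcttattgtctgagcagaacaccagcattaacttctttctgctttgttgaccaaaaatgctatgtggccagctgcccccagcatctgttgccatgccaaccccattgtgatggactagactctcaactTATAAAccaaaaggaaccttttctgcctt
The internal window held none of the 4 motifs and the outermost held 1 TATAAA. At 43.6% and 44.4% G and C, both lay below the median of all promoters (52.4%) and below Ing5.

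Elsewhere, an intron of Sirt2 at chr7:28780749-28781650 rose from 4.31, 5.02, 5.84 and 4.30 CPM to 8.80, 11.7, 8.48 and 10.4 (log2 FC 1.02, SE 0.131, adjusted p = 6.8e-09), without overlap between the ages, while the start site of Sirt2 fell. Ncoa2 had 2 regions higher and 4 lower, Ncoa1 2 higher, Hdac4 2 lower, and Hdac2, Hdac7 and Hdac11 1 higher each. The largest loss was at Hdac4 (chr1:92052278-92052626), from 3.16, 5.16, 3.24 and 4.50 CPM to 1.92, 2.27, 2.30 and 1.58 (log2 FC -0.97, adjusted p = 8.09e-05).

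**Figure D3:**
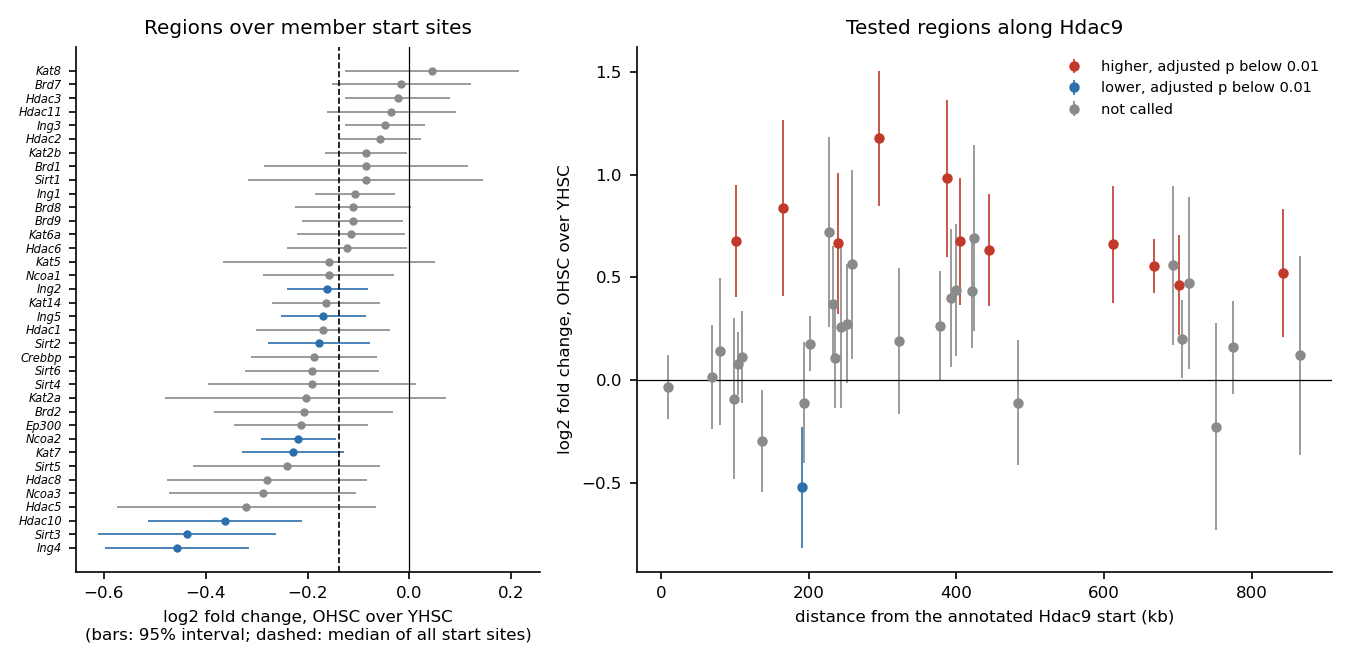
Left, log2 fold change of accessibility (OHSC over YHSC, 4 libraries each) for 36 regions over member start sites, with bars of the 95% interval and a dashed line at the median of all start sites. Right, the 40 tested regions along Hdac9 by distance from its annotated start in kb: 11 were called higher and 1 lower, and of the start sites on the left all but that of Kat8 lie below 0.

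H3K27ac, the mark that CBP and p300 deposit at active promoters and enhancers, had 97 peaks at 40 members. At an adjusted p below 0.05 in limma, 1 was higher and 1 lower in OHSCs, against 2.53% and 0.415% of all 39557 peaks. The signal of a peak near the Hdac3 start was 1.54 and 1.35 in YHSCs and 2.11 and 3.28 in OHSCs (log2 FC 0.69, adjusted p = 0.0487), while the larger Hdac3 start peak had 5.57 and 4.46 against 4.69 and 4.98 (log2 FC -0.04, adjusted p = 0.923). The Brd8 start peak had 8.74 and 9.80 against 5.56 and 7.60 (log2 FC -0.48, adjusted p = 0.0419). Accessible regions that overlap these peaks also held starts of Rell2 (at Hdac3) and Kif20a (at Brd8), so neither peak can be assigned to 1 gene. No group overlapped the other in either called peak, as in 47.6% of all peaks. Neither call was kept with old library 1 or 2 left out, and with young library 1 left out 7 peaks were higher and 4 lower, so the counts rest on single libraries. Over the 47 peaks near starts, 34 were below 0 with a median of -0.06 (-0.02 over all such peaks). At genes lower in RNA and accessibility, a start peak of Ncoa2 had 6.54 and 4.46 against 3.79 and 4.13 (log2 FC -0.41, adjusted p = 0.165) and the other had a log2 FC of -0.16 (adjusted p = 0.679). That of Ing5 had 6.15 and 5.49 against 4.29 and 4.98 (-0.30, adjusted p = 0.270) and that of Hdac10 5.02 and 4.84 against 4.59 and 4.25 (-0.14, adjusted p = 0.665), and none of these was called.

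In YHSCs, H3K4me3, the mark of active or poised promoters, had peaks at 40 of the members and near the start of 39. H3K27me3, the Polycomb mark, had peaks at 1 member, Hdac9. There, 16 H3K27me3 peaks had signals of 0.0979 to 0.485, and the peak over the outermost start, chr12:34906000-34920999, had 0.284 and 0.320 in the 2 young libraries. An H3K4me3 peak at chr12:34906384-34907785, with 14.9 and 14.7, lay inside it. This H3K4me3 peak was annotated to the gene body and did not reach the outermost start at chr12:34917095. A further H3K27me3 peak at chr12:34612000-34623999 (0.266 and 0.306) covered the intronic region with the largest gain of accessibility. Old libraries of these marks were not analysed here. Hdac9 also had 13 H3K27ac peaks, all inside the gene and none called with age (log2 FC -0.29 to 0.34).

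Knockdown of the shorter Btaf1 variant in old HSCs tested whether the same genes respond to this factor. In cultured HSCs, 1 member was called higher and 1 lower with the 4 shRNA libraries against 2 controls, while 1.7% and 1.66% of 19763 genes were. Hdac9 had 48.8 and 48.6 CPM in the controls, 21.5 and 23.1 with shRNA1 and 32.5 and 28.7 with shRNA2, so that each shRNA library lay below both controls, a separation in either direction that 25.9% of genes showed (log2 FC -0.88, SE 0.159, adjusted p = 0.0347). With shRNA1 and shRNA2 as separate arms of 1 fit, which share the estimate of the spread, each was called against the controls. The log2 FC was -1.13 (adjusted p = 1.45e-10) and -0.67 (adjusted p = 1.55e-06). Hdac9 also passed the study's rule of an FC above 1.5 with an unadjusted p below 0.05, which 0.972% of genes passed downward and 2.45% upward. Sirt3 had 130 and 126 CPM in the controls, 141 and 146 with shRNA1 and 145 and 152 with shRNA2 (log2 FC 0.19, SE 0.0462, adjusted p = 0.0338). Both calls were lost without single libraries: without control 1 or 2, shRNA1 library 2 or shRNA2 library 2, the adjusted p was 0.0759 to 0.278 for Hdac9 and 0.0536 to 0.350 for Sirt3.

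Hdac3 was next by p, with 238 and 230 CPM in the cultured controls against 216, 215, 203 and 211 (log2 FC -0.15, SE 0.0410, adjusted p = 0.0649). All 4 class I deacetylases had a log2 FC below 0 in culture (-0.15 to -0.06). For 41 of the 43 members the 95% interval lay within 1.5-fold, and for 60.0% of all genes, the exceptions being Hdac9 and Hdac11. Among the partner genes, Baz2a rose (log2 FC 0.39, adjusted p = 0.0112) and Jade1 and Atad2 fell (-0.27 and -0.26, adjusted p = 0.0171 and 0.00550). All 7 proliferation markers had a log2 FC below 0 after knockdown in culture and 6 were called lower, with a summed plain CPM of 1730 to 1765 in controls and 1464 to 1570 under the shRNAs. The sum of 5 T and NK cell markers was 35.9 to 37.5 in controls and 18.7 to 25.1 under the shRNAs. It was almost all Nkg7 (means of 36.6, 18.8 and 23.5 plain CPM in controls, shRNA1 and shRNA2). That of 8 myeloid markers was 158 to 164 and 188 to 242, mostly Prtn3 (means of 159, 185 and 236). Of the 5 erythroid markers tested 2 were called lower. The erythroid sum was 609 to 612 in controls, 479 to 504 with shRNA1 and 645 to 659 with shRNA2. The 8 HSC markers summed to 1897 to 1934 in controls and 2039 to 2149 under the shRNAs. The part of these markers in the culture results was not tested.

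In transplanted HSCs 0 members and 0 of 20350 genes were called by edgeR. At an unadjusted p below 0.05, 3 members and 5.59% of genes passed, and DESeq2 called 0 members and 60 genes. Brd1 had the smallest p of the members: 59.2 and 58.8 CPM in the controls, 46.7 and 35.3 with shRNA1 and 21.8 and 41.2 with shRNA2 (log2 FC -0.70, SE 0.240, adjusted p = 0.852), without overlap, as for 14.7% of genes in either direction. It was the 1 member to pass the study's rule downward, as 0.811% of genes did (1.43% upward), and it did not pass without control 1 or 2 or shRNA2 library 1. Brd1 was also the tested member with the widest relative spread among the OHSC libraries of the age comparison. Sirt4 had 19.9 and 20.6 CPM in the controls against 25.6, 22.4, 25.2 and 27.5 (log2 FC 0.31, adjusted p = 0.852) and Kat5 65.0 and 55.8 against 72.2, 65.7, 68.0 and 70.6 (log2 FC 0.19, adjusted p = 0.881). The 95% interval lay within 1.5-fold for 41 members, Brd1 and Hdac11 excepted, and for 54.9% of all genes. The summed plain CPM of 8 myeloid markers varied from 187 to 687 between these libraries. That of 7 dissociation stress genes was 274 to 311 in controls and 202 to 255 under the shRNAs, and that of 8 HSC markers 3522 to 3595 and 3195 to 3429. All 7 proliferation markers had a log2 FC above 0 here and none was called by edgeR (1 at an unadjusted p below 0.05, and sums of 431 to 595 in controls and 535 to 675 under the shRNAs). The part of these markers in the transplant values was not tested.

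Hdac9 was not lower in transplanted HSCs, with 44.6 and 53.0 CPM in the controls against 66.8, 51.3, 56.6 and 55.3 (log2 FC 0.24, SE 0.119, adjusted p = 0.884). The difference between its knockdown effects in the 2 experiments was 1.12 on the log2 scale (SE 0.211), with an adjusted p of 0.0563 in edgeR and 5.75e-05 in DESeq2. Without shRNA2 library 1 of the culture or shRNA1 library 2 of the transplants, edgeR gave 0.0379 and 0.0342. Hdac9 was not called with any other shRNA library left out, with no filter, with DESeq2's size factors or with the replicate block. In this test of the difference, 0 members were called by edgeR, 5 had an unadjusted p below 0.05 (8.75% of genes), and DESeq2 called 1, while edgeR called 0.103% and 0.107% of 21443 genes in the 2 directions. The 7 proliferation markers were all above 0 in the same test (median 0.46), 6 of them at an unadjusted p below 0.05 and none called, and their part in the Hdac9 difference was not tested. Next to Hdac9 were Kat2b (-0.46, adjusted p = 0.402) and Hdac11 (-0.85, adjusted p = 0.418).

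**Figure D4:**
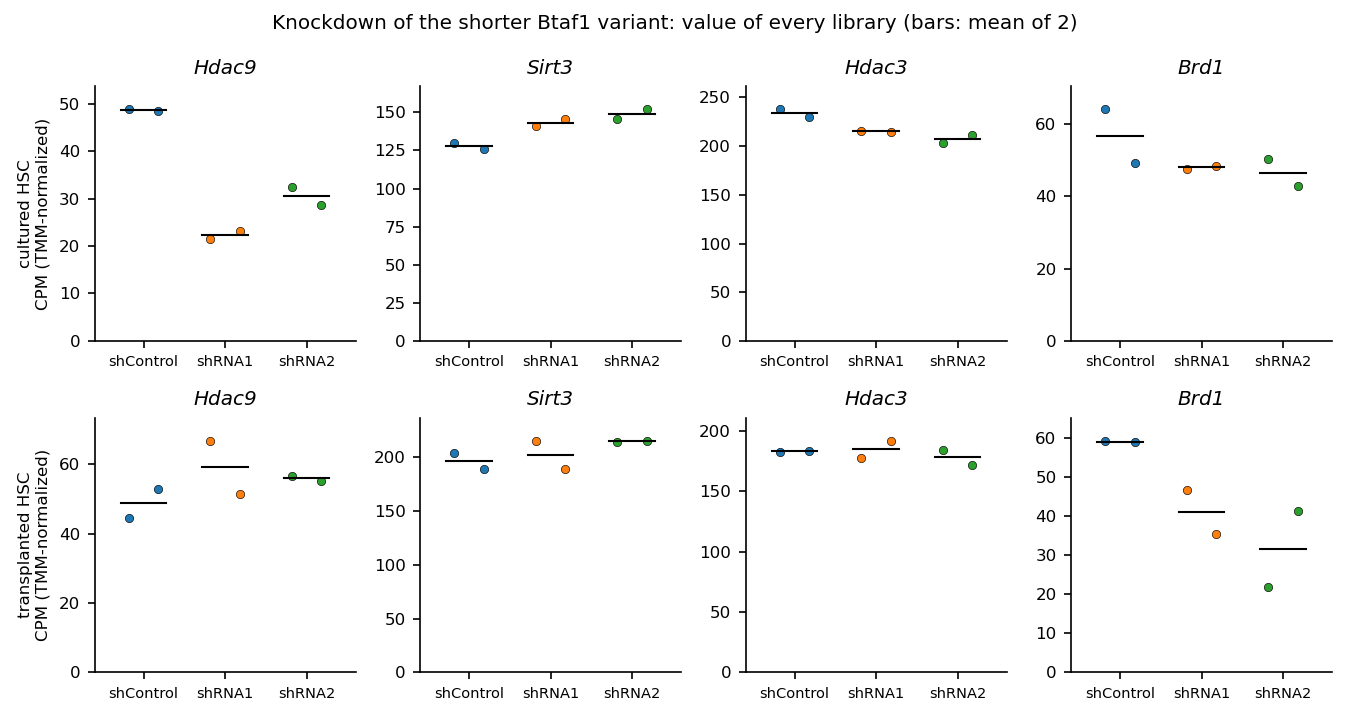
Levels in CPM (linear axis from 0) of Hdac9, Sirt3, Hdac3 and Brd1 in each cultured (top) and transplanted (bottom) library, with the mean of 2 as a line. Hdac9 fell from 48.8 and 48.6 to between 21.5 and 32.5 CPM in culture, and lay between 44.6 and 66.8 CPM in all 6 transplanted libraries.

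Between progenitors some members differed many-fold. Between MEP and CMP 9 members were higher and 19 lower (28.9% and 35.6% of 18234 genes), between GMP and CMP 3 and 13 (18.8% and 16%), and between MEP and GMP 12 and 17 (27.7% and 33.7%). With so many genes called, a call alone says little of a member. Of the markers, 8 erythroid markers summed to 12121 to 12723 plain CPM in MEP against 550 to 594 in CMP and 32.6 to 43.5 in GMP, and 8 myeloid markers to 57435 to 58603 in GMP. In MEP 6 megakaryocyte markers summed to 24.3 to 25.1 against 567 in CMP and 36.8 to 70.0 in GMP, so the megakaryocyte part of the MEP label was not borne out by these markers. The sum of 7 proliferation markers was 1769 to 1791 in CMP, 2069 to 2189 in GMP and 2328 to 2420 in MEP, and that of 8 HSC markers 1009 to 1028, 542 to 606 and 533 to 585, and the part of these in the members' values was not tested.

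Among the deacetylases, 3 of the 4 class I genes were higher in MEP, and Hdac5, Hdac9 and Hdac6 of class II were lower. Hdac1 had 184 and 182 CPM in CMP, 193 and 194 in GMP and 267 and 266 in MEP (MEP over CMP log2 FC 0.54, SE 0.0460, adjusted p = 2.11e-07), and Hdac2 and Hdac3 were higher in MEP as well (0.41 and 0.33). Hdac5 had 59.4 and 61.4 CPM in CMP, 62.7 and 64.5 in GMP and 5.39 and 5.60 in MEP (log2 FC -3.46, SE 0.0950, adjusted p = 2.11e-12). Hdac9 went from 8.27 and 10.3 CPM in CMP and 6.55 and 8.78 in GMP to 0.903 and 0.455 in MEP (log2 FC -3.76, SE 0.300, adjusted p = 1.14e-07). Hdac6, the tubulin deacetylase, had 43.3 and 41.9, 37.1 and 40.1, and 9.09 and 14.3 CPM in CMP, GMP and MEP (MEP over CMP -1.87, adjusted p = 1.98e-06). Hdac7 had another order: 106 and 111 CPM in CMP, 31.1 and 33.2 in GMP and 118 and 126 in MEP, so that GMP stood alone (GMP over CMP log2 FC -1.75, SE 0.0701, adjusted p = 2.65e-09). Set against GMP, MEP had a log2 FC of 1.93 for Hdac7, -3.53 for Hdac5, -3.49 for Hdac9 and -1.72 for Hdac6, all called. Hdac11 was near 1 CPM in all 3 populations, and its call between MEP and GMP (log2 FC 1.13, adjusted p = 0.0468) was lost without either CMP or MEP library or GMP library 2, with an adjusted p of 0.0507 to 0.222.

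Of the sirtuins, Sirt2, Sirt1, Sirt3 and Sirt5 were called between MEP and CMP. Sirt2, the cytosolic sirtuin, had 43.1 and 43.2 CPM in CMP, 42.9 and 41.1 in GMP and 111 and 109 in MEP (MEP over CMP log2 FC 1.35, SE 0.0687, adjusted p = 1.06e-09, and MEP over GMP 1.39). Sirt1, a nuclear deacetylase, was also highest in MEP (MEP over GMP 0.79, adjusted p = 1.05e-05). The mitochondrial Sirt3 and Sirt5 were lowest there: Sirt3 had 108 and 112 CPM in CMP, 85.7 and 85.3 in GMP and 31.2 and 38.3 in MEP (MEP over CMP -1.66, adjusted p = 1.68e-09), and Sirt5, a desuccinylase, had 21.2 and 19.7, 16.3 and 16.5, and 6.77 and 4.21 (-1.89, adjusted p = 1.14e-06). Sirt4, Sirt6 and Sirt7 were not called between MEP and CMP.

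Of the coactivators, 4 of 5 were called lower in MEP than in CMP, and 4 of 5 lower in GMP than in CMP. Ncoa3 had 60.7 and 60.4 CPM in CMP, 36.7 and 35.8 in GMP and 5.39 and 5.23 in MEP (MEP over CMP log2 FC -3.51, SE 0.102, adjusted p = 3.72e-12, GMP over CMP -0.74, adjusted p = 2.48e-05, and MEP over GMP -2.77, adjusted p = 3.62e-11). Kat6b followed the same order, with 16.8 and 14.8, 9.37 and 11.9, and 5.62 and 7.42 CPM (MEP over CMP -1.28, adjusted p = 3.15e-05). Its GMP difference (-0.58, adjusted p = 0.0222) was lost without CMP library 1 or GMP library 1, at 0.137 and 0.175. Kat8, the acetyltransferase of H4K16, was higher in MEP than in CMP (0.50, adjusted p = 0.000297) and Kat14 higher in GMP (0.25, adjusted p = 0.00581).

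Of the readers, Ing4, Ing3 and Ing1 were called lower in MEP than in CMP (log2 FC -1.41, -0.76 and -0.62) and Ing5 higher (0.29). Brd7, a subunit of the PBAF remodeler, had 114 and 115 CPM in CMP, 121 and 121 in GMP and 158 and 165 in MEP (MEP over CMP log2 FC 0.49, adjusted p = 2.26e-06). Brd2 and Brd3 were called lower in MEP than in CMP (log2 FC -0.18 and -0.33). Brd9, a subunit of a noncanonical BAF remodeler, and Brd8 of NuA4 were higher in GMP than in CMP (0.33 and 0.16), and Ing4 was lower (-0.73, near 3 CPM). All 3 of these calls were weak. That of Brd9 was lost without CMP library 2 or GMP library 1 (adjusted p = 0.0530 and 0.0581), that of Brd8 without either CMP library or GMP library 1 (0.0640 to 0.150), and that of Ing4 without any of the 4 libraries (0.133 to 0.150). Without GMP library 1, the members lower in GMP than in CMP numbered 7.

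**Figure D5:**
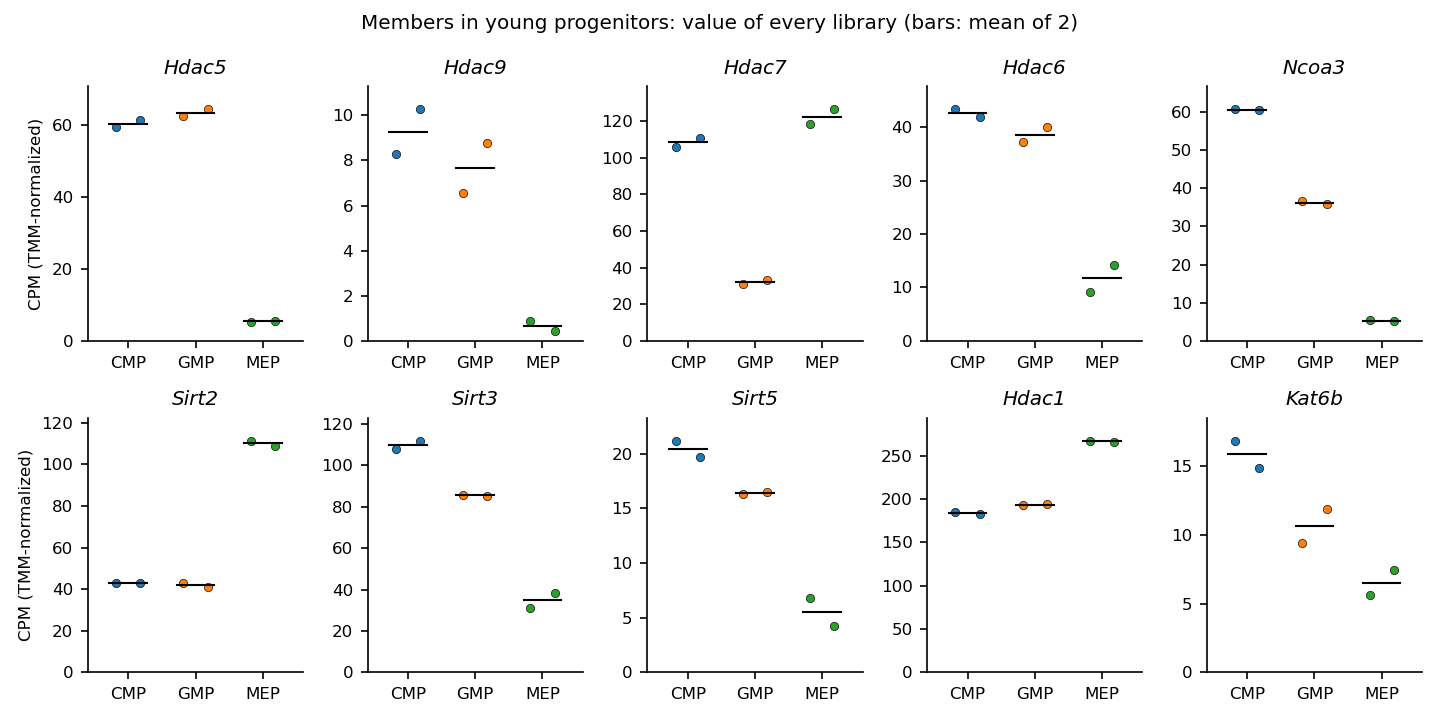
Levels in CPM (linear axes from 0) of 10 members in each of 2 libraries of CMP, GMP and MEP, with the mean as a line. Hdac5, Hdac9, Hdac6, Ncoa3, Sirt3 and Sirt5 were lowest in MEP, Sirt2 and Hdac1 highest there, and Hdac7 was low in GMP alone.

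Levels across experiments are given side by side in plain CPM and were not tested, since cell population, experiment and library preparation cannot be told apart. All 6 progenitor libraries lay below all 4 YHSC libraries for 19 members, above them for 5 (Brd3, Brd7, Brd8, Hdac2 and Kat7) and overlapped them for 19, while 46.2% of expressed genes lay below and 19.2% above. Hdac11, the class IV deacetylase, had mean plain CPM of 19.6 in YHSCs, 19.5 in OHSCs and 11.5 in transplanted controls. In cultured controls the mean was 2.57, and in progenitors no library passed 1.63. Kat6b had 53.6 to 62.7 plain CPM in YHSCs, 45.1 to 53.9 in OHSCs, 44.7 to 46.9 in transplanted controls, 20.5 to 23.9 in cultured controls and 5.60 to 18.1 in progenitors. For Kat6b the OHSC and transplanted libraries overlapped, and for both genes the cultured controls lay below them and above the progenitors. Hdac9 had 35.4 to 37.3 plain CPM in YHSCs, 22.9 to 36.7 in OHSCs, 44.5 to 52.7 in transplanted and 48.2 to 48.4 in cultured controls, and 0.453 to 11.1 in progenitors. Cultured HSCs lay below transplanted HSCs in every library for 15 members and above for 3 (Hdac1, Hdac3 and Ing1), against 32.9% and 18% of expressed genes. Hdac3 was 201 to 236 plain CPM in culture and 172 to 192 after transplantation.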

How the data were processed

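Per the labels and the study's methods, the authors trimmed mRNA-seq reads (trim galore, cutadapt), used STAR for alignment to mm10 and took gene totals from featureCounts with GENCODE M22. The deposited values are raw counts. How strand and multiply mapped reads were handled is, for this pipeline, not given in the sources, so reads of overlapping, antisense or near-identical genes could be split or lost. For ATAC-seq the authors deposited raw counts per consensus region (127695 regions, 4 young and 4 old libraries used, 15427933 to 26260337 reads each). For the histone marks they deposited a signal per peak from libraries scaled to a fixed number of reads, beside a ratio (old divided by young) and the log2 of it, both left unused. In all, 8 columns of per-sample values tied to no listed sample were not used.

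Groups came from the labels, and transplanted replicates were pools of recipients. No source used here states whether replicates of the cultured and progenitor cells came from separate cultures or animals, so p-values there measure the spread between libraries, which may be technical. Counts were fitted in R 4.3.3 with edgeR 4.0.16 (TMM, filterByExpr, robust quasi-likelihood test, Benjamini-Hochberg adjustment over all genes tested), without 92 spike-in rows. ATAC regions needed 1.5 CPM in 4 or more libraries and an adjusted p below 0.01 for a call. H3K27ac was fitted as log2(signal + 0.5) with limma 3.58.1, so fold changes of weak peaks are understated. Intervals are the estimate with its SE at the 95% level and assume a normal error. Start sites are annotated gene starts in GENCODE M21 within 100 bases of a region, promoters and motifs come from RefSeq GRCm38.p6, and mm10 shares its coordinates. No library pair of a group agreed within sampling noise (lowest chi-square per degree of freedom 4.42 over 43 pairs). Scripts were tested on simulated data. Alternatives were DESeq2 1.42.0, its size factors, no filter, each shRNA alone, another pseudocount or peak filter for H3K27ac, leaving out each library, and the replicate number as a block. For each shRNA alone, both shRNAs were separate arms of 1 fit with a shared spread.

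The named genes were, for age, those called; for knockdown and progenitors, up to 4 called members each way with the largest change in a comparison, and where fewer than 3 passed, the 3 with the smallest p. The Hdac9 regions, the printed promoters and the genes set side by side across experiments were chosen after their values were seen. The members and lists were chosen with earlier results of these data known. Hi-C and the ChIP-seq of progenitors and of other marks were not used here, and 1 member's own values are not reported here.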

Additional observations from a re-analysis of the deposited data

Results flagged for a closer look

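Of 104 groups of 4 to 8 HSC libraries examined for a value far from the rest, 6 held one, and chance alone gives about 1 in 20. In YHSCs, library 1 had 165 CPM of Crebbp (the nearest other library 154) and 209 CPM of Sirt3 (186), and library 4 had 35.6 CPM of Sirt5 (33.2). In OHSCs, library 3 had 56.1 CPM of Kat5 (51.8), library 6 had 37.2 CPM of Kat8 (34.6), and library 8 had 163 CPM of Brd8, below the nearest at 174. None of these 6 genes was called with age.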

How the results depend on the processing

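No named result changed direction under any alternative. Between ages, the members called higher numbered 1 instead of 2 with DESeq2's size factors and 0 with no filter on low counts or with the replicate block, and the partner genes 3 higher and 5 lower with no filter and 2 higher with the block. In culture, 2 members were higher with DESeq2 or with no filter and 3 lower with no filter, 3 lower with shRNA1 alone and 2 lower with shRNA2 alone, and 0 either way with the block. By the study's rule in transplants, 0 members were lower with no filter or shRNA1 alone and 2 with shRNA2 alone, and DESeq2 called 1 member in the test between experiments. For H3K27ac, 0 peaks were called higher and 2 lower after scaling to the same median signal, and 0 either way with a pseudocount of 0.1 or with weak peaks removed. Same-numbered libraries are not stated to be pairs and did not deviate together (correlations of -0.23 to 0.04 between ages, -0.02 to 0.04 in culture, -0.05 to 0.08 in transplants, 0.02 for H3K27ac and 0.04 to 0.12 in progenitors). With the block 5 members were called lower with age, Ing5, Ncoa2 and Kat14 as before and also Hdac9 and Ncoa1 (adjusted p = 0.0287 and 0.0435), while adjusted p was 0.0525 for Kat2a, 0.0816 for Hdac3, 0.0908 for Kat6b, 0.106 for Hdac10, 0.0931 for Sirt7, 0.0785 for Sirt3 and 0.0853 for Hdac9 in culture, and 0.0662 for Hdac11 between MEP and GMP. For ATAC-seq alone, no paired analysis was possible because the libraries of the ages share no replicate number. Leaving out 1 library gave 0 to 3 members higher and 3 to 8 lower between ages (0 to 0 above 1.5-fold), 2 to 6 partners higher and 4 to 11 lower, 12 to 20 regions higher and 14 to 21 lower, 0 to 7 H3K27ac peaks higher and 0 to 4 lower, 0 to 1 members higher and 0 to 1 lower in culture, with the study's rule 0 to 1 higher there and 0 to 1 lower in transplants, 0 to 1 between experiments, and 1 to 3 members higher and 7 to 13 lower in GMP against CMP. Where that left an arm with 1 library, it was assumed to vary like the others. Members of a few CPM or less, such as Hdac11 and Ing4 in progenitors, are limited by depth, and 2 libraries a group limit all progenitor, knockdown and H3K27ac calls.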
